A study of Homo sapiens with 8 samples.

Results

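G3BP1 peaks at ribosomal protein genes are described here in HEK293T cells, an established human embryonic kidney line that carries the SV40 large T antigen. The set holds 10 genes, taken by fixed windows and strands on the hg19 build: RPL30, RPL3, RPL4, RPL8, RPL11 and RPLP0 of the large ribosomal subunit, and RPS2, RPS3, RPS6 and RPSA of the small one. A deposited G3BP1 peak belonged to a gene if it lay wholly inside that gene's window on its strand. This gave 46 of the 2925 peaks found after PDS (1.57%) and 32 of the 1421 peaks of untreated cells (2.25%), 78 of 4346 in all. The genes were chosen with the peak lists in view and are led by RPL30, which holds the highest enrichment of the untreated list. Their peak numbers and enrichment are therefore a description, with no test.

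The cells had either been given 20 µM PDS for 12 h before crosslinking or had not been treated (Ctrl). PDS is not spelled out in the labels; in work on guanine quadruplexes, four-stranded structures of guanine-rich nucleic acid, it usually stands for pyridostatin, a ligand of these structures. In seCLIP, a form of crosslinking and immunoprecipitation sequencing, RNA bound to G3BP1 was recovered with an antibody (IP) and set against input libraries made without it. The 8 libraries were PDS IP, PDS input, Ctrl IP and Ctrl input with 2 replicates each, and the authors combined the replicates into 1 peak list per condition. Each peak carries the authors' log2 fold of IP over input and −log10 p, as read from the values, with no SD and no value per replicate. No difference between the lists could thus be set against the spread between replicates, and the number of reads behind a peak is unknown.

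G3BP1 is an RNA-binding protein that builds stress granules, the cytoplasmic bodies in which untranslated mRNAs gather when translation initiation is blocked. Ribosomal protein mRNAs are among the most abundant mRNAs of growing cells. They begin with a terminal oligopyrimidine (TOP) tract at the 5′ end, through which mTOR signalling and LARP1 control their translation together. Several of their introns encode small nucleolar RNAs (snoRNAs), which guide the modification of ribosomal RNA. By gene symbol and chromosome, all 10 genes matched RefSeq (GRCh38.p14), where 6 of them enclose 15 snoRNA genes in all: SNORA72 in RPL30, SNORD15A and SNORD15B in RPS3, SNORA10 and SNORA64 in RPS2, and others in RPL3, RPL4 and RPSA. RPL8 encloses the microRNA gene MIR6850. An annotation of the hg19 build was not used, so no peak could be placed in an exon, an intron, a UTR or a snoRNA, the windows could not be checked against gene ends, and peak sequences are not shown.

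G3BP1 peaks were found in 7 of the 10 windows, and in the same 7 in both lists. They were 4 of the 6 large subunit genes (RPL30, RPL4, RPL8 and RPL11) and 3 of the 4 small subunit genes (RPS2, RPS3 and RPS6). RPL3, a large subunit protein that reaches towards the peptidyl transferase centre, held 0 peaks in either list. RPLP0, the base of the stalk that recruits elongation factors, and RPSA, a small subunit protein also known as the laminin receptor precursor, held 0 peaks as well. A window with 0 peaks says only that no stretch passed the authors' limits, since the lowest log2 fold in either list was 3.0, an enrichment of 8.0 times. The opposite strand of the 10 windows held 0 peaks in both lists. No peak crossed a window's edge, and the nearest same-strand peak outside a window with peaks lay 188900 nt away (PDS list, RPS2 window), so the placing of the edges decided no count. The nearest to a window without peaks lay 33399 nt from RPLP0 in the PDS list (log2 fold 3.29) and 33389 nt in the Ctrl list (3.21).

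Peak numbers were higher after PDS in 6 of the 7 genes and lower in RPL30. RPL8 held 14 PDS and 11 Ctrl peaks, and RPS3 held 12 and 10. These 2 genes together carried most of the set in both lists. RPS2 held 6 PDS peaks against 2 Ctrl peaks, RPS6 held 4 against 1, RPL11 held 3 against 1 and RPL4 held 3 against 2. RPL30 held 4 PDS peaks against 5 Ctrl peaks. Over the whole series, 53.4% of the 425 loci with peaks of both lists (same-strand peaks chained over gaps of up to 10000 nt) had more PDS peaks. In 143 of these loci the numbers were equal, and in 55 there were fewer PDS peaks. The PDS list as a whole is the longer one, with 2925 against 1421 peaks.

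**Figure D1:**
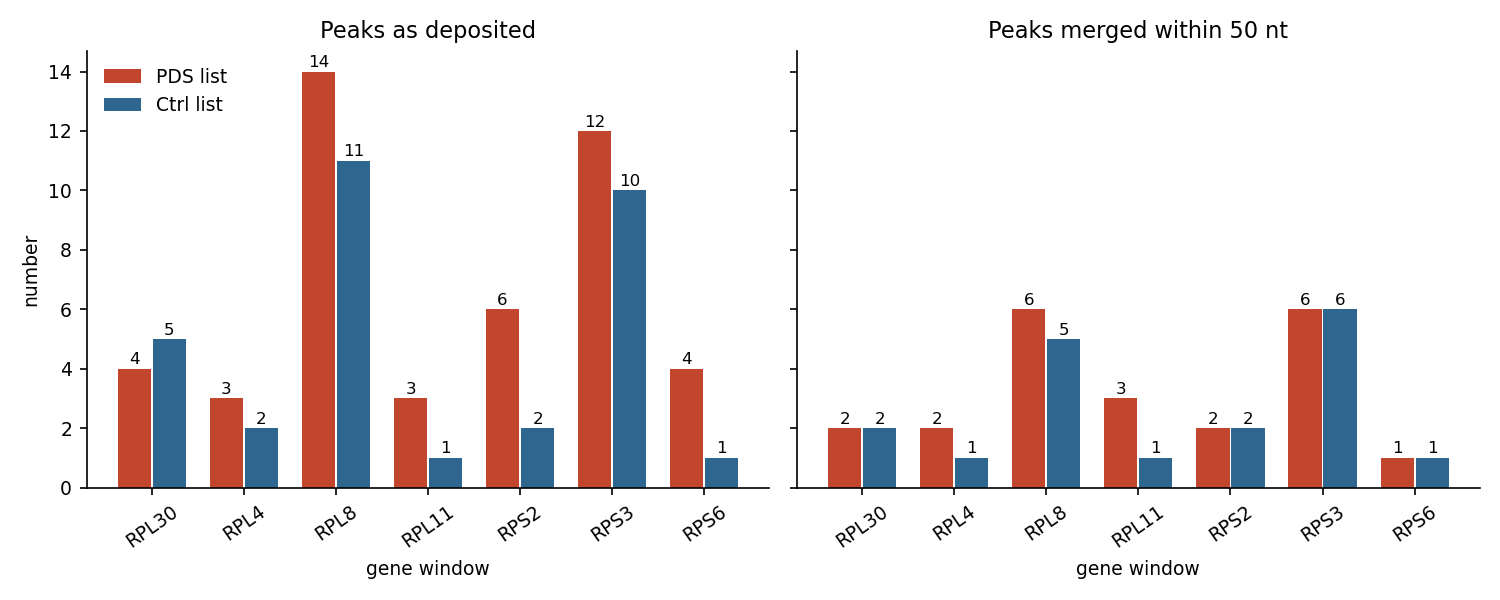
Peaks per gene window, as deposited (left) and after merging same-strand peaks within 50 nt (right); bars are numbers of peaks or merged regions in the PDS and Ctrl lists. As deposited, 6 genes have more PDS peaks and RPL30 has 4 PDS against 5 Ctrl peaks; after merging, 3 genes have more PDS regions and 4 have as many in both lists.

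Many of these peaks adjoined one another. Of the members, 34 of 46 PDS peaks (73.9%) and 22 of 32 Ctrl peaks (68.8%) abutted another peak of their own list, against 40.5% of all PDS and 20.3% of all Ctrl peaks. After merging within 50 nt, RPL4, RPL8 and RPL11 had more PDS regions than Ctrl regions, while RPL30, RPS2, RPS3 and RPS6 had as many in both lists. The 6 RPS2 peaks after PDS formed 2 regions, as many as the 2 Ctrl peaks did, and the 4 RPS6 peaks after PDS formed 1. The bound length was 1442 nt after PDS and 1187 nt in Ctrl over the 7 genes, a ratio of 1.21, beside 196589 and 112841 nt in the whole lists, a ratio of 1.74. It was longer after PDS in RPL4 (142 against 96 nt), RPL11 (130 against 23 nt), RPS2 (169 against 94 nt), RPS3 (425 against 382 nt) and RPS6 (114 against 77 nt). It was shorter after PDS in RPL30 (47 against 64 nt) and RPL8 (415 against 451 nt).

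RPL30 is a small protein of the large subunit whose yeast counterpart binds its own transcript. After PDS it held 4 peaks along the minus strand of chromosome 8. Their log2 fold was 4.85 at 99057603 to 99057622, 5.26 at 99057623 to 99057628, 5.48 at 99057736 to 99057737 and 5.49 at 99057738 to 99057756, which are enrichments of 28.9 to 45.1 times over input. Within the PDS list these peaks ranked 161, 51, 21 and 19 of 2925, above at least 94.5% of the list.

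In Ctrl cells RPL30 carried the 5 most enriched peaks of the whole list. The Ctrl log2 fold was 6.27 at 99057602 to 99057623, 6.26 at 99057624 to 99057628, 6.47 at 99057736 to 99057737, 6.26 at 99057738 to 99057757 and 6.21 at 99057758 to 99057772. These are enrichments of 74.2 to 88.6 times over input and spanned 0.26 on the log2 scale, and the highest log2 fold of any Ctrl peak outside RPL30 was 5.94. The highest PDS log2 fold of RPL30 lay below its lowest Ctrl log2 fold. How many other loci have their values apart in this way was not counted. The Ctrl peak closest to the 5′ edge of the window, 15 nt wide with a log2 fold of 6.21, had no PDS peak over it, and the nearest PDS peak ended 1 nt away from it.

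The −log10 p of the RPL30 peaks differed in the same direction. It lay between 52.2 and 54.7 in the 4 PDS peaks, against 66.7 in 1 of the Ctrl peaks and 400 in the other 4. The value 400 is read as a stand-in at the top of the scale, because the next highest value was 87.9 in the PDS list and 87.3 in the Ctrl list. In all, 82 PDS peaks (2.8%) and 8 Ctrl peaks (0.563%) stood at 400. RPL30 thus held 0 of those 82 after PDS and 4 of those 8 in Ctrl.

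**Figure D2:**
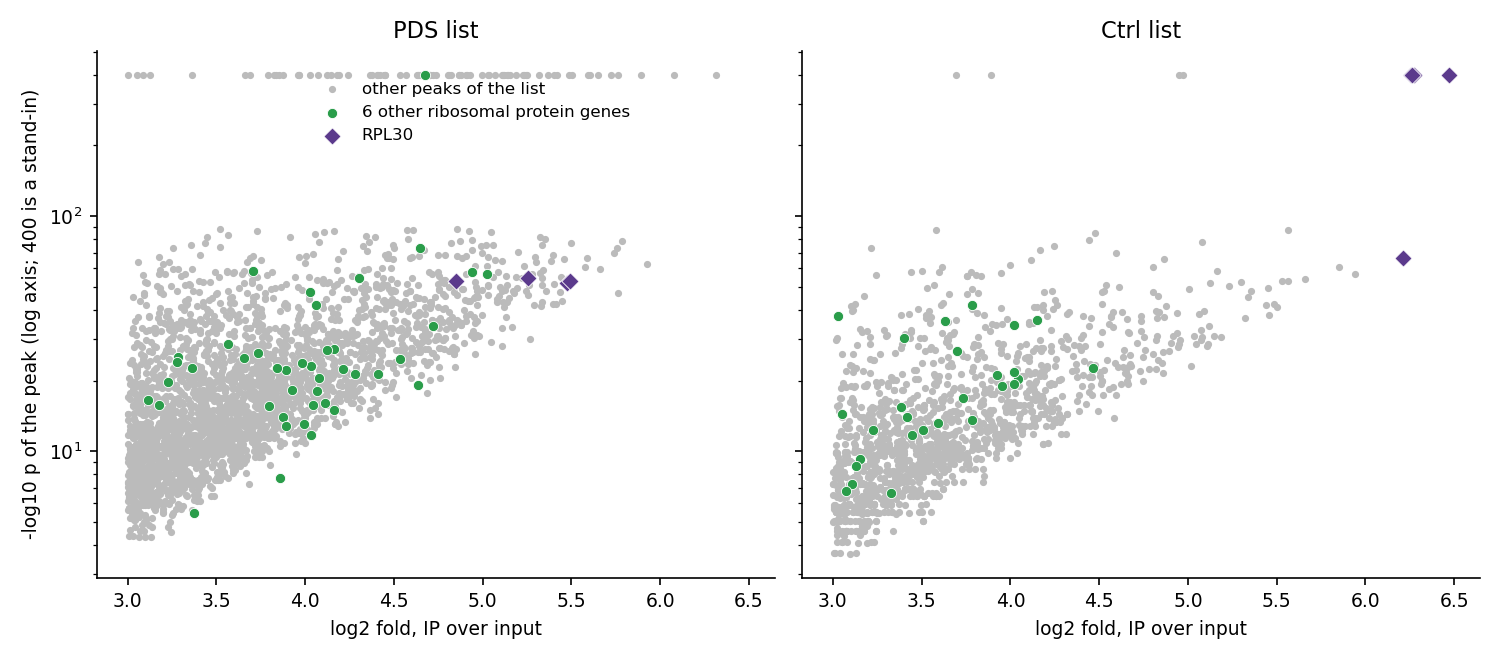
Each dot is 1 peak of the PDS list (left) or the Ctrl list (right), with the authors' log2 fold on the x axis and their −log10 p on the y axis (log scale; 400 is a stand-in value). In the PDS list the 4 RPL30 peaks (diamonds) lie between a log2 fold of 4.85 and 5.49, with 0 at 400, and 1 RPS3 peak stands at 400; in the Ctrl list the 5 RPL30 peaks lie to the right of every other peak and 4 of them stand at 400.

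Most RPL30 peak borders lay within 1 nt of a border in the other list. Joined over the lists, the peaks fell into 2 short stretches, 27 nt (99057602 to 99057628) and 37 nt (99057736 to 99057772) long, separated by 107 nt without a peak in either list. PDS peaks covered 26 nt of the first and 21 nt of the second, and Ctrl peaks covered 27 and 37 nt. The peak of 2 nt at 99057736 to 99057737 had the same start and end in both lists. All 8 borders of the 4 PDS peaks lay within 1 nt of a like border (start with start, end with end) of a Ctrl peak, and 8 of the 10 borders of the 5 Ctrl peaks lay within 1 nt of a like PDS border. In the whole lists, 4.39% of PDS borders and 9.04% of Ctrl borders did so, with peaks that overlap nothing included. At exactly the same place were 4 of the 8 PDS and 4 of the 10 Ctrl borders of RPL30. The whole lists had 2.17% and 4.47% there.

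Borders also matched in other members, in RPS3 at 12 of 24 PDS and 12 of 20 Ctrl borders. Over the 7 genes, 30 of 92 PDS borders (32.6%) lay within 1 nt of a like Ctrl border and 30 of 64 Ctrl borders (46.9%) within 1 nt of a like PDS border, beside 4.39% and 9.04% in the whole lists. Both borders matched in 10 of the 46 member PDS peaks and 10 of the 32 member Ctrl peaks, where 30 of all 2925 PDS peaks (1.03%) and 30 of all 1421 Ctrl peaks (2.11%) did so. The 7 genes thus held 10 of the 30 in each list. The 10 were 4 in RPL30, 4 in RPS3, 1 in RPL8 and 1 in RPS2. In RPL4 and RPS6 0 borders matched, although their peaks overlapped. Abutting peaks share a border, so borders are not independent of each other.

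**Figure D3:**
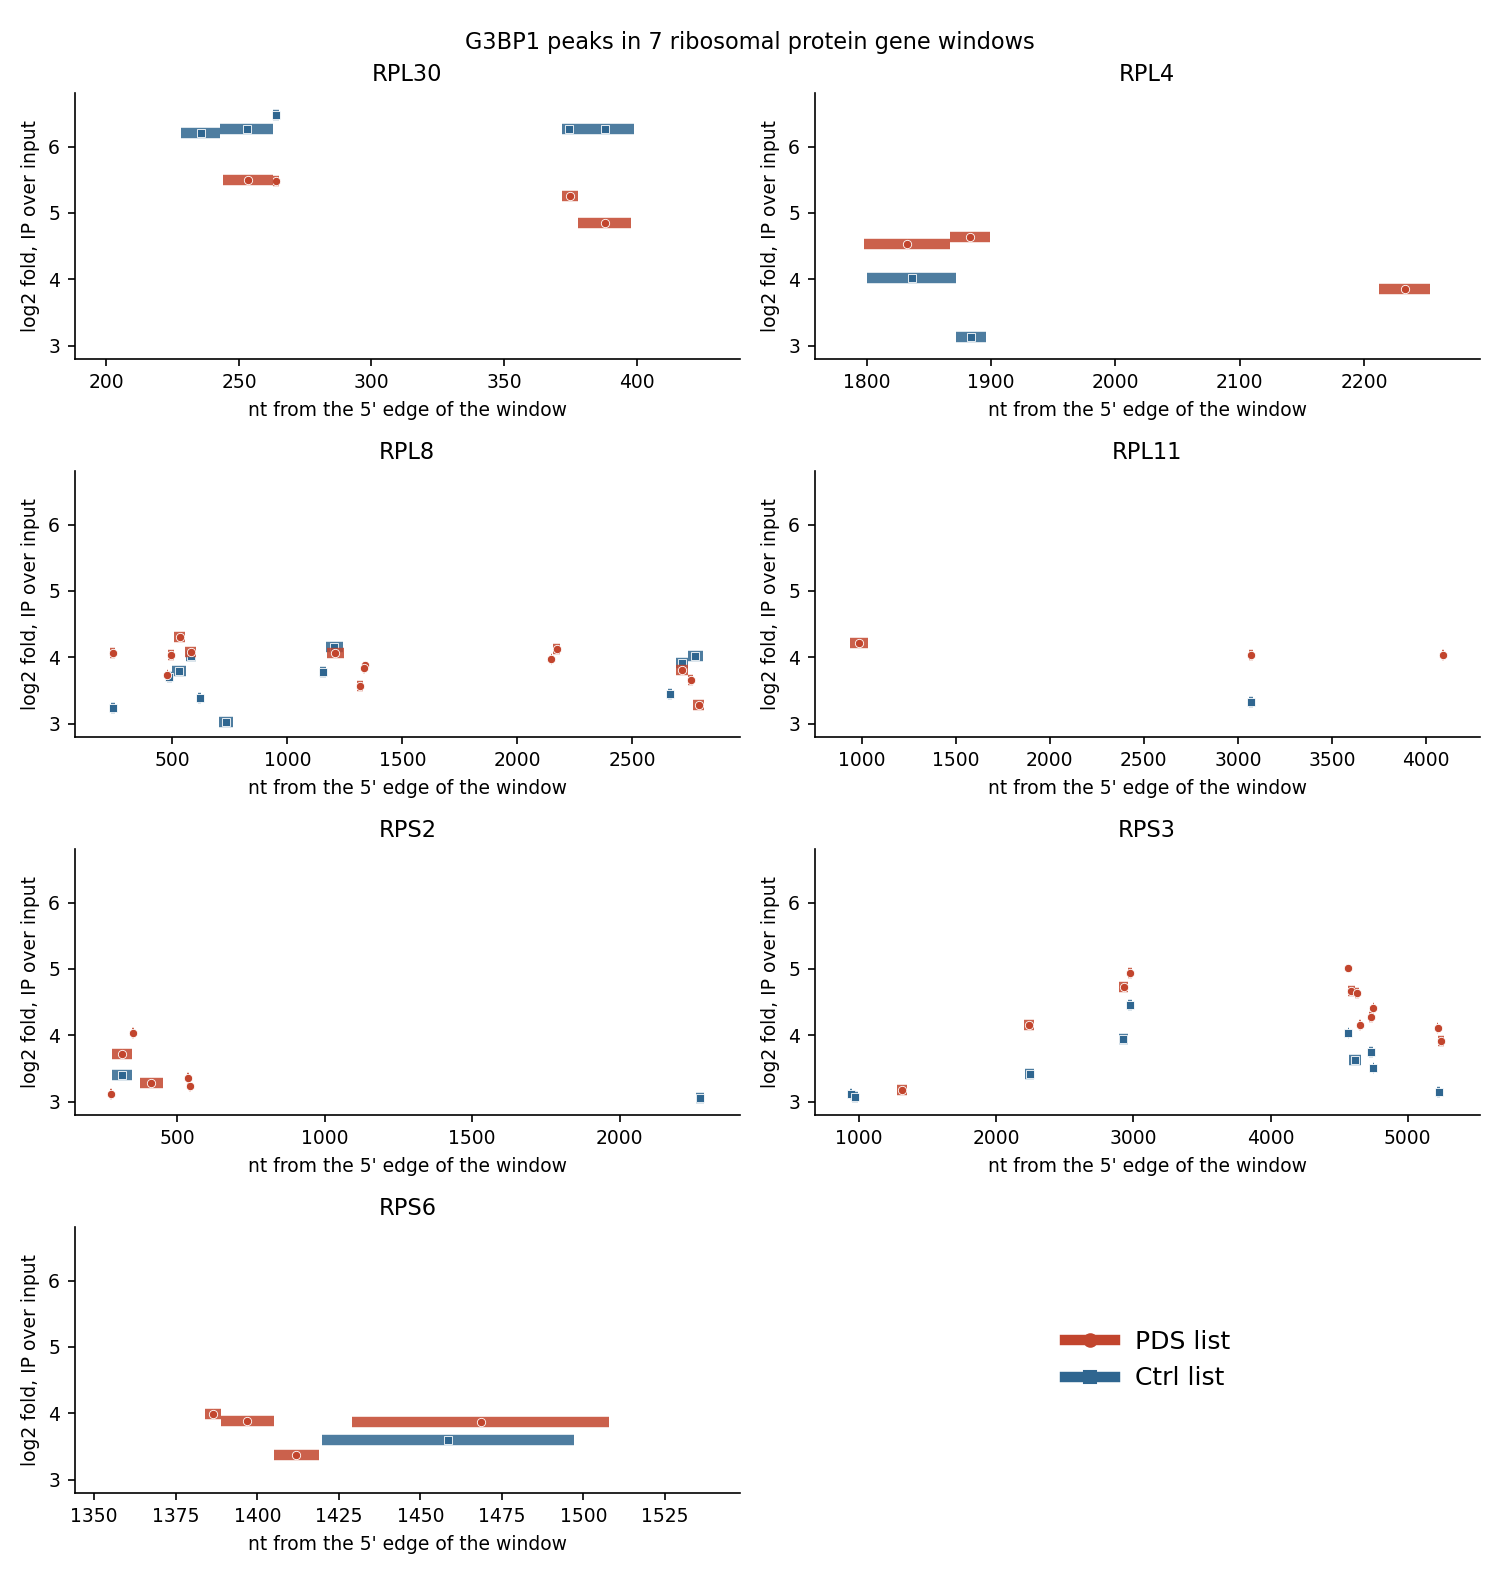
Peaks of the 7 genes along each window, with the distance in nt from the window's 5′ edge on the x axis (transcript direction left to right; each panel has its own range) and the authors' log2 fold on the y axis; bars span a peak and markers show its midpoint. In RPL30 the 4 PDS peaks lie below the 5 Ctrl peaks, whereas in RPS3 and RPL4 the PDS peaks lie above the Ctrl peaks they overlap.

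RPS3, a small subunit protein near the entry of the mRNA channel that also has roles in DNA repair, ran the other way from RPL30. Its 12 PDS peaks had log2 folds of 3.18 to 5.02 with a median of 4.35, and its 10 Ctrl peaks had 3.07 to 4.46 with a median of 3.57. On the plus strand of chromosome 11, the highest PDS peak was 3 nt wide, at 75115064 to 75115066, with a log2 fold of 5.02, and the Ctrl peak over it, at 75115063 to 75115069, had 4.04. The adjoining PDS peak at 75115067 to 75115112 had a log2 fold of 4.67 and was the 1 member peak after PDS with a −log10 p of 400. The Ctrl peak at 75115070 to 75115161, which overlaps it by 43 nt, had 3.63 and a −log10 p of 35.7, and the remaining 3 nt lie under the Ctrl peak with 4.04.

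At 75113460 to 75113490 a PDS peak had a log2 fold of 4.94, against 4.46 for the Ctrl peak at 75113459 to 75113491, the highest Ctrl peak of the gene. In each of the 14 overlapping pairs of a PDS and a Ctrl peak in RPS3, the PDS value was the higher one, by 0.26 to 1.05. These pairs were made from 11 PDS and 8 Ctrl peaks, so peaks recur among them. Only 1 pair joined peaks that met no other, and the pair with 0.26 had 1 nt in common. Peaks without a counterpart were weak in both lists: 1 PDS peak at 75111777 to 75111845 (log2 fold 3.18) and 2 abutting Ctrl peaks at 75111434 to 75111489 (3.11 and 3.07), 287 nt apart.

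RPL8, a large subunit protein close to the peptidyl transferase centre, had about equal enrichment in both lists. Its 14 PDS peaks ranged from 3.28 to 4.30 (median log2 fold 3.94) and its 11 Ctrl peaks from 3.03 to 4.15 (median 3.78). On chromosome 8 (minus strand), the highest PDS peak spanned 146017444 to 146017491 and had a log2 fold of 4.30, against 3.79 for the Ctrl peak at 146017443 to 146017503. The PDS peak at 146016755 to 146016828 had 4.06, against 4.15 for the highest Ctrl peak, at 146016760 to 146016833. Of the 11 overlapping pairs, 7 were higher after PDS and 4 lower.

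The direction differed along the RPL8 window. The stretch nearest its 3′ edge, from 146015188 to 146015346, had 3 overlapping pairs, all lower after PDS, with differences of −0.74, −0.37 and −0.13 (PDS minus Ctrl). In the stretch from 146017377 to 146017525 all 6 pairs were higher after PDS, by 0.03 to 0.52, and at 146017751 to 146017770 the PDS peak was higher by 0.84. PDS peaks alone covered 146015817 to 146015855 (2 peaks, log2 fold 4.12 and 3.98) and 146016662 to 146016699 (3 peaks, highest 3.89). A Ctrl peak alone covered 146017238 to 146017299 (log2 fold 3.03).

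RPL4 and RPL11 showed higher values after PDS at the places bound in both lists. RPL4 lines the tunnel through which the new peptide leaves the ribosome. On the minus strand of chromosome 15, its PDS peaks at 66795402 to 66795433 and 66795434 to 66795502 had log2 folds of 4.64 and 4.53, against 3.13 and 4.02 for the Ctrl peaks at 66795405 to 66795428 and 66795429 to 66795500. The pair at the first of these places differed by 1.5, the widest rise in the set, 2.84 times on the linear scale. A further PDS peak at 66795048 to 66795088 (log2 fold 3.86) had no Ctrl counterpart.

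RPL11 is part of the 5S particle of the large subunit and binds MDM2 when ribosome assembly fails. On the plus strand of chromosome 1, its PDS peak at 24021257 to 24021281 had a log2 fold of 4.03, against 3.33 for the Ctrl peak at 24021259 to 24021281. The other 2 RPL11 peaks were found after PDS alone, at 24019138 to 24019232 (log2 fold 4.21, the highest of the gene) and at 24022287 to 24022296 (4.04). They lay 2026 and 1005 nt from the Ctrl peak.

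By their highest Ctrl peak, RPS2 and RPS6 were the least enriched members apart from RPL11. RPS2 lies at the mRNA entry site of the small subunit and bears on decoding accuracy. On chromosome 16 (minus strand), its PDS peak spanning 2014554 to 2014621 had a log2 fold of 3.71, against 3.40 for the Ctrl peak at 2014554 to 2014620. A further 3 PDS peaks between 2014450 and 2014626 had 3.28, 4.03 and 3.11, and a pair of short PDS peaks at 2014355 to 2014366 had 3.23 and 3.36. A weak Ctrl peak at 2012615 to 2012641 (log2 fold 3.05) lay 1713 nt from any PDS peak.

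RPS6, the substrate of the S6 kinases below mTOR, had a PDS peak with a log2 fold of 3.87 on chromosome 9 (minus strand), spanning 19378793 to 19378871, against 3.59 for its 1 Ctrl peak at 19378804 to 19378880. A further 3 short PDS peaks between 19378882 and 19378916 had 3.37, 3.89 and 3.99. The bound stretch of RPS6 thus reached 36 nt further towards the 5′ edge of its window after PDS.

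**Figure D4:**
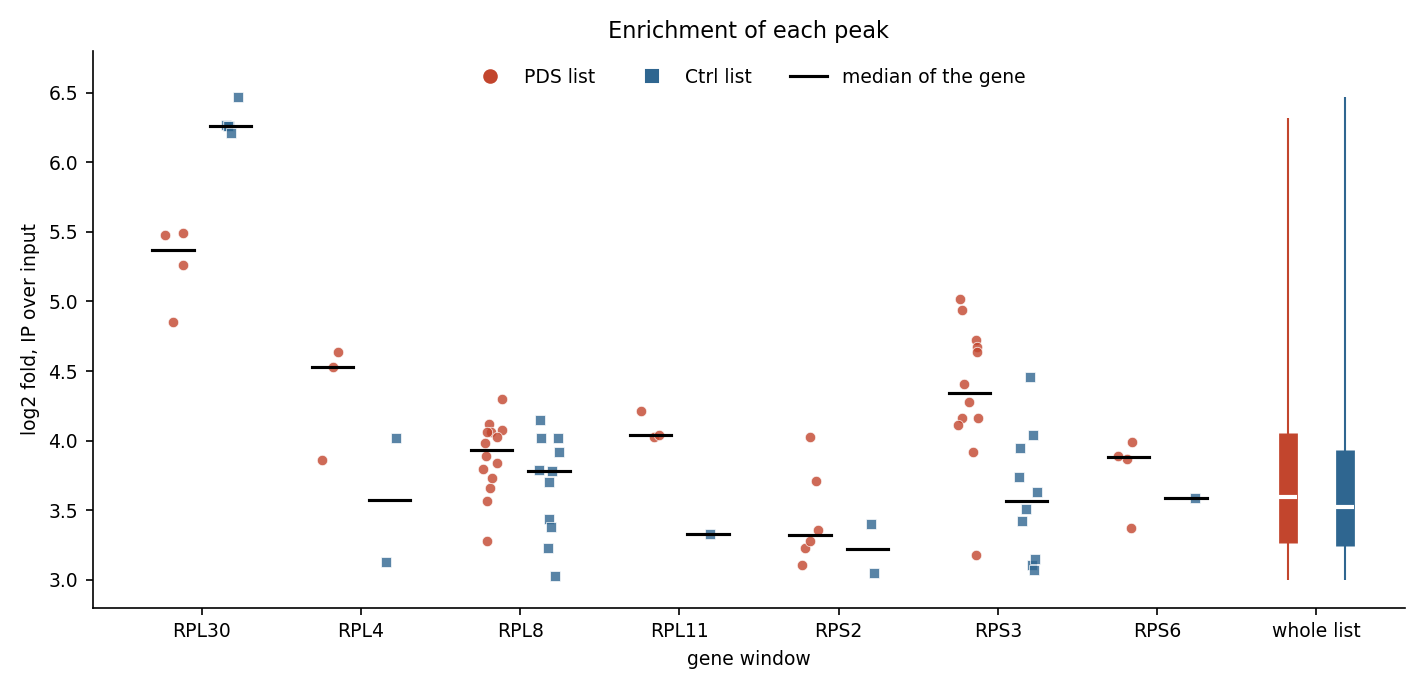
The authors' log2 fold of every peak in each gene window (dots for the PDS list, squares for the Ctrl list, black lines for the gene's median); at the right, the whole lists with their range (thin line), quartiles (thick bar) and median (white mark). RPL30 stands at 4.85 to 5.49 in the PDS list and at 6.21 to 6.47 in the Ctrl list; in the 6 other genes the PDS median lies above the Ctrl median.

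Across the set the median log2 fold was 4.04 for the 46 PDS peaks and 3.72 for the 32 Ctrl peaks, beside 3.59 and 3.52 in the whole lists. A log2 fold of at least 4 was reached by 26 PDS peaks (56.5%) and 11 Ctrl peaks (34.4%). In the whole lists 27.6% of PDS and 22.0% of Ctrl peaks did so. Without RPL30, it was reached by 22 of 42 PDS peaks (52.4%) and 6 of 27 Ctrl peaks (22.2%). The Ctrl share was then close to that of the whole list. At least 5 was reached by 4 PDS peaks, 3 of them in RPL30 and 1 in RPS3, and by 5 Ctrl peaks, all in RPL30. The shares in the whole lists were 3.59% and 2.67%. Member peaks were short, with a median width of 26.0 nt in the PDS list and 25.5 nt in the Ctrl list, beside 63.0 and 74.0 nt for all peaks. These are widths of peaks as deposited, and member peaks abutted one another more often than peaks of the whole lists. Widths of merged regions were not compared. By subunit, the medians for the large one were 4.05 (24 PDS peaks) and 3.92 (19 Ctrl peaks), with 4 and 5 RPL30 peaks among them. Those for the small one were 4.01 (22 PDS peaks) and 3.51 (13 Ctrl peaks).

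Places bound in the set were mostly bound in both conditions. Of the PDS peaks, 29 of 46 overlapped a Ctrl peak by at least 1 nt, a share of 63.0% (exact Clopper-Pearson 95% interval 47.5 to 76.8%), beside 30.6% of all PDS peaks. Of the Ctrl peaks, 24 of 32 overlapped a PDS peak, 75.0% (56.6 to 88.5%), beside 51.5% of all Ctrl peaks. The intervals cover counting error only, and peaks of 1 gene are not independent. When the peaks of both lists were joined within 50 nt, the 7 genes held 25 stretches, of which 15 had peaks of both lists, 7 of the PDS list alone and 3 of the Ctrl list alone. In the whole series 22.4% of 2599 stretches had peaks of both. All 7 genes have peaks in both lists, whereas the shares over the whole lists were not limited to such genes. The member shares and the whole-list shares are thus not on a like basis. No test of these differences was made, since the genes were chosen from the lists.

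RPL30 and the other members differed in direction at overlapping peaks. In all, 36 pairs of a PDS and a Ctrl peak overlapped; 27 were higher after PDS (75.0%, where 64.9% of the 1002 pairs of the whole lists were), and 9 were lower. The 9 were all 5 pairs of RPL30 and 4 of the 11 pairs of RPL8. Of the 27 higher ones, 14 were in RPS3. A peak can enter more than 1 pair, and some pairs have 1 nt in common, so pairs are not independent. The RPL30 pairs differed by −1.42, −1.02, −1.0, −0.99 and −0.77 (PDS minus Ctrl). The pair with the widest gap thus had 2.68 times the enrichment in Ctrl. In the whole lists 24 of the 1002 pairs (2.4%) were lower by at least 1. Of those 24, 2 were in RPL30 (−1.42 and −1.02). The −1.02 pair had 1 nt in common, and its PDS peak also made the −1.0 pair, over 5 nt. The median of all pairs was 0.24. Because RPL30 leads the set by its Ctrl enrichment, which enters these differences, its lower values are a description only. Where exactly 1 PDS peak met exactly 1 Ctrl peak, 5 of 9 member pairs were higher after PDS, beside 62.0% of 410 such pairs in the whole lists; both RPL30 pairs of this kind were lower.

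At nucleotides bound in both lists, RPL30 was lower after PDS and RPS3, RPL4 and RPL11 were higher. Over the 47 nt in common in RPL30, the mean log2 fold was 5.19 after PDS and 6.28 in Ctrl. The difference of −1.09 ranked 7th from the lowest among 333 loci with nucleotides in common. RPL30 leads the set by its Ctrl enrichment, which enters this difference, so the rank is a description only. Over 327 nt in RPL8 the mean was 3.93 in both lists. The difference was 0.28 over 68 nt in RPS6, 0.31 over 67 nt in RPS2, 0.70 over 23 nt in RPL11, 0.77 over 96 nt in RPL4 and 0.78 over 321 nt in RPS3. Of the 333 loci, 62.2% were higher after PDS, with a median difference of 0.14, and RPS3, RPL4 and RPL11 ranked 41, 42 and 45 from the highest.

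**Figure D5:**
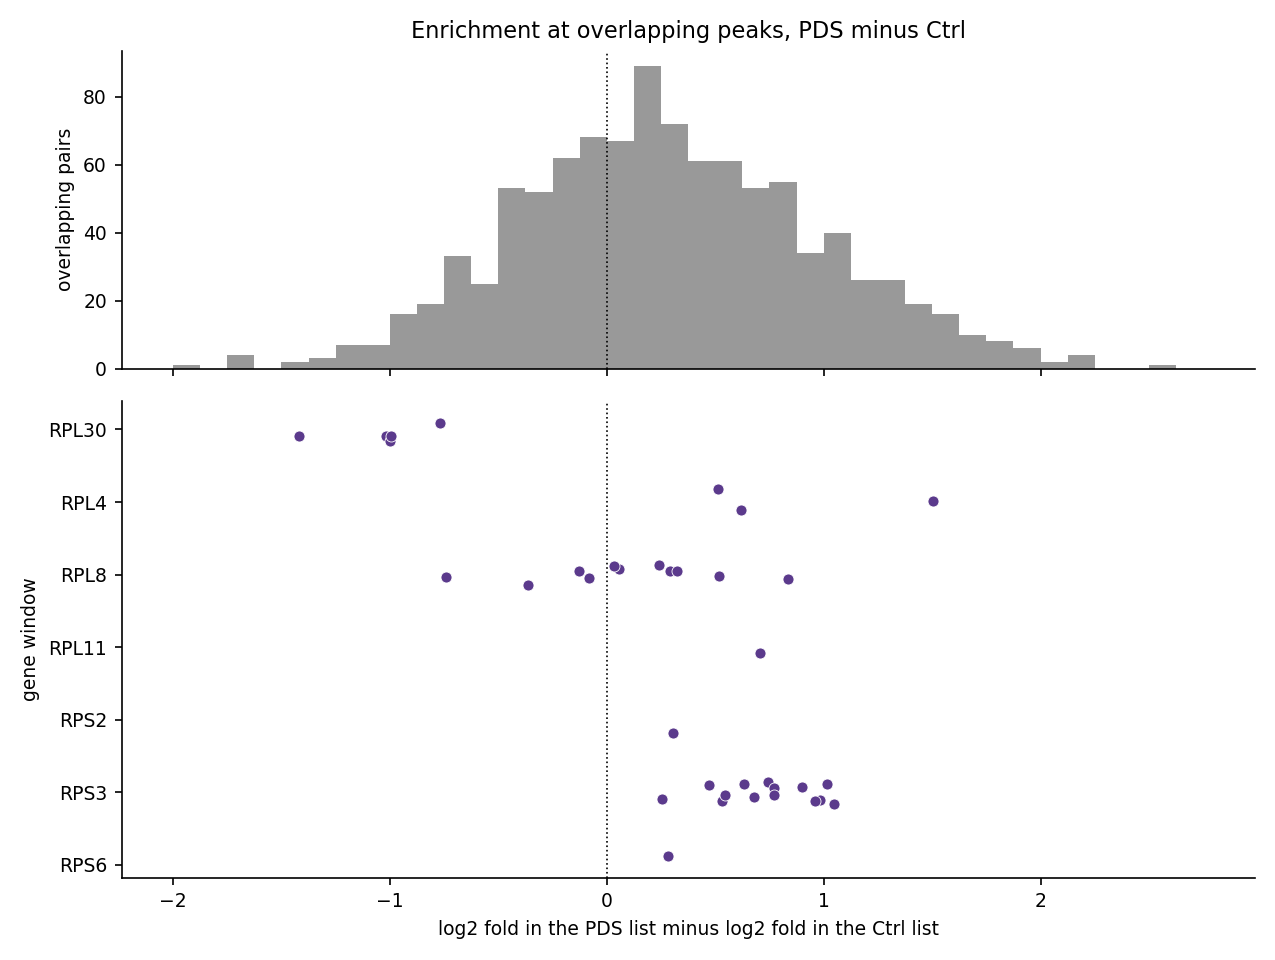
Difference in the authors' log2 fold (PDS minus Ctrl, x axis) for every overlapping pair of a PDS and a Ctrl peak: above, the number of pairs in the whole lists (1002 pairs); below, the 36 pairs of the 7 genes, 1 dot each, spread at random in height within a gene. All 5 RPL30 pairs lie below 0 (−1.42 to −0.77), all 14 RPS3 pairs above 0 (0.26 to 1.05), and RPL8 pairs on both sides. A peak can enter more than 1 pair.

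The highest log2 fold of each gene was also set side by side, mostly from peaks at different places in the 2 lists. Only in RPL4 did the highest PDS peak overlap the highest Ctrl peak, by 5 nt. In RPL11, RPS2 and RPS6 the highest PDS peak overlapped no Ctrl peak. The highest value was greater after PDS in 6 of the 7 genes. The difference was 0.15 in RPL8, 0.40 in RPS6, 0.56 in RPS3, 0.62 in RPL4, 0.63 in RPS2 and 0.88 in RPL11. In RPL30 the highest value was lower after PDS by 0.98 on the log2 scale. In the whole series the highest value was greater after PDS in 61.4% of 425 loci, with a median difference of 0.20. These differences do not compare the same sites. In these 6 genes the highest PDS value was taken over more peaks than the highest Ctrl value. RPL30 leads the set by its highest Ctrl value, which enters its difference.

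Of the 17 PDS peaks without overlap, 9 lay within 100 nt of a Ctrl peak, where 9.06% of the 2031 such peaks of the whole list did. Of the 8 Ctrl peaks without overlap, 5 lay within 100 nt of a PDS peak, where 13.6% of 689 did. The 9 PDS peaks were all in RPL8, RPS2 and RPS6, and most of them abutted another PDS peak. The 5 Ctrl peaks were in RPL8 and RPL30. Few separate places thus stand behind these numbers. Each of the 7 genes has peaks in both lists, whereas the whole lists were not limited to such genes. No test of these differences was made. The 17 PDS peaks had a median log2 fold of 3.86, against 4.16 for the 29 overlapping ones. The 8 Ctrl peaks had a median of 3.25, against 3.85 for the 24 overlapping ones, with the RPL30 peak of 6.21 as the exception among them. The whole lists differ in the same way, with medians of 3.47 without overlap against 3.97 with it for PDS peaks, and 3.43 against 3.63 for Ctrl peaks. Whether a change in mRNA level or in input signal after PDS moved with these values was not tested, since the lists give no expression.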

How the data were processed

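G3BP1 seCLIP was made in HEK293T cells with and without PDS, with 2 IP and 2 input libraries per condition. Per the submitters' processing notes, STAR, cutadapt and UMI-tools were run and the build was hg19. The sources used here name neither the peak caller and its limits nor how replicates were joined. The authors deposited 1 peak list per condition with 6 columns and no header. Of the columns between the end and the strand, the first was read as the authors' −log10 p and the other as the authors' log2 fold of IP over input, from the values and the usual eCLIP format. Starts were treated as counted from 0 and are printed from 1. Depth per library was not analysed here.

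Peaks were assigned by window and strand, overlapped (at least 1 nt, same strand), merged (50 nt) and chained into loci (10000 nt) in python 3.11.15 with pandas 2.3.3, numpy 2.4.6 and scipy 1.17.1. The overlap code was checked with 300 planted copies of Ctrl peaks, of which it found 300. That check bears on the code only. Shares have exact Clopper-Pearson 95% intervals. All 10 genes are named, with the highest peak of each gene and list. The members and lists were chosen with earlier results of these data known. Other ribosomal protein genes were not counted, because no hg19 annotation was used. No statistical test was made: there is 1 combined value per peak, and nothing says whether the replicates came from separate cultures. Alternatives were a stricter threshold, merging, other overlap definitions, wider windows and leaving out RPL30.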

Additional observations from a re-analysis of the deposited data

How the results depend on the processing

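Of 14 alternative values for counts and bound lengths, 7 stayed within 1.5 times the reported one and 7 moved. Of 12 for shares and medians, 4 left the 95% interval of the reported value, and all 4 were shares. The exact Clopper-Pearson intervals apply to the shares only. The intervals used for the median log2 fold were 3.89 to 4.16 (PDS) and 3.4 to 4.02 (Ctrl). All these intervals rest on few peaks that are not independent, so staying inside them is no sign of stability. The stricter threshold (log2 fold from 4 and −log10 p from 5 upwards) left 26 PDS and 11 Ctrl peaks with a bound length of 842 and 360 nt, and merging within 50 nt left 22 PDS and 18 Ctrl regions. Genes with more PDS peaks numbered 3 after merging. The share of PDS peaks that overlapped a Ctrl peak was 45.7% with reciprocal overlap of 50%, 82.6% within 100 nt and 46.2% with both lists under the stricter threshold; the share of Ctrl peaks was 90.6% within 100 nt. Stricter limits leave fewer peaks and wider ones more overlap by construction. Without RPL30, the PDS and Ctrl peak counts were 42 and 27, the shares 59.5% and 74.1%, the median log2 folds 4.03 and 3.59 and the bound lengths 1395 and 1123 nt. The alternatives to the 1-to-1 pairs were chosen after seeing the data: 55.6% of 9 such pairs were higher after PDS, 71.4% without RPL30 and 27 of all 36 pairs (75.0%), with an interval of 21.2 to 86.3% on the 9 pairs. For peak counts of single genes, 18 of 28 alternative values moved; RPL30 kept 4 PDS and 5 Ctrl peaks under the stricter threshold, and both lists had 2 regions after merging. No paired analysis was possible because replicates had been combined before deposit, nor could a replicate be left out. The unknown depth bears on every window without peaks.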
